A study of Sus scrofa with 4 samples.

Results

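Aminoacyl-tRNA synthetases were examined in cultured fibroblasts from the skin of pig fetuses, across 4 RNA libraries. The genes were chosen by name: 21 of the cytosolic set, counting the scaffold genes AIMP1 and AIMP2, and 16 of the mitochondrial set. Of these 37 genes, 36 were matched by symbol to a row of the deposited count tables, which list 35670 genes each, and all 36 had enough reads to be tested. The remaining gene, FARSB, the beta subunit of cytosolic phenylalanyl-tRNA synthetase, was not analysed here. The controls (2 libraries, genotype WT, titles with pTK-642) were compared with 2 libraries of genotype BRG1-overexpressed, whose titles carry pTK-642-BRG1. All 4 samples had undergone serum starvation. The labels do not explain pTK-642, do not give the age of the fetuses, and do not say whether libraries of a group came from separate cultures, so the p-values below measure only the spread between these libraries, which may be technical. BRG1 is the ATPase of the BAF chromatin remodelling complex, and the series' design text asks what its over-expression does to donor cells used for cloning.

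A synthetase joins an amino acid to its matching tRNA at the cost of ATP, and so supplies the ribosome with charged tRNA. Animal cells keep separate nuclear genes for most enzymes of the cytosol and of the mitochondrion, while GARS1 and KARS1 each make the glycine or lysine enzyme of both. Part of the cytosolic set is bound into the multi-tRNA synthetase complex, held together by AIMP1, AIMP2 and EEF1E1. When an amino acid runs short, uncharged tRNA activates the kinase GCN2 (EIF2AK4), translation of the transcription factor ATF4 increases, and many cytosolic synthetase genes are among the known targets of ATF4. Fibroblasts depend on these enzymes to make the large amounts of matrix protein they secrete.

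Reads counted in genes ranged from 34486400 to 38126860 per library. SMARCA4, which encodes BRG1, stood at 154 and 179 CPM (read counts scaled to library size with TMM factors) in the controls and at 159 and 163 in the libraries labelled BRG1. The groups overlapped, with a log2 fold change of -0.04 ± 0.11 (SE; adjusted p = 0.765), and without control 1 the gene passed as lower (-0.15; adjusted p = 0.0251). Its reads thus do not show the labelled over-expression, and the directions below are those of the labels. Of 9 fibroblast markers with a row, 6 rose and 0 fell at an adjusted p threshold of 0.05. Among all tested genes 21.0% rose and 23.6% fell. The other markers, COL3A1 (-0.21), PDGFRB (-0.22) and VIM (-0.27), had log2 fold changes below 0 and did not pass. In COL3A1 and VIM both libraries labelled BRG1 lay below both controls. The summed level of the 9 markers was 24752 to 28057 CPM in controls and 35337 to 35382 CPM in the libraries labelled BRG1. Summed markers of keratinocytes, endothelium, blood, melanocytes and muscle reached at most 7.77 CPM per cell type in any library. KRT5, KRT1, TEK, PTPRC, HBB and MYOD1 had 0 reads in all libraries. In the endothelial and keratinocyte lists, single markers went opposite ways. PECAM1 rose from 87 and 104 reads to 247 and 264 while VWF had 82 and 37 against 28 and 27 and did not pass. EPCAM fell from 14 and 20 reads to 3 and 1 while CDH1 had 0 and 0 against 2 and 33 and was too low to be tested. Reads assigned to no gene were 6.11% and 7.34% of those listed for controls 1 and 2, and 10.3% and 10.5% for the libraries labelled BRG1; the part of this in the results was not tested. In RNA of whole cultures, fewer cells of a kind and less RNA per cell cannot be told apart.

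Cytosolic synthetases were lower in the libraries labelled BRG1, and mitochondrial synthetases showed no such shared direction. Of 20 cytosolic genes, 15 fell, 0 rose and 5 did not pass, at an adjusted p threshold of 0.05 over the 14617 genes tested; among all tested genes 23.6% fell and 21.0% rose, which makes 44.6% in either direction. Their median log2 fold change was -0.50, against 0.02 for all tested genes. In 17 of the 20, both libraries labelled BRG1 lay below both controls in CPM, which held for 35.7% of all tested genes. Of 16 mitochondrial genes, 2 fell, 1 rose and 13 did not pass, with a median of -0.09. The fall in cytosolic genes was modest in size: 14 of the 15 that passed changed less than 2-fold. Without library 1 labelled BRG1, 7 cytosolic genes fell, and without library 2, 10. With scaling by library size alone, which moved the median of all genes by 0.22 on the log2 scale, the cytosolic and mitochondrial medians were -0.27 and 0.14, and relative to all genes they stayed at -0.52 and -0.11.

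The ratio of cytosolic to mitochondrial synthetase reads, which needs no scaling between libraries, was 13.4 and 13.5 in controls, and 9.81 and 9.88 in the libraries labelled BRG1. The groups did not overlap, and the gap between them was wider than the gap within either. Cytosolic genes together had 4429 and 4213 CPM in controls, and 3079 and 3138 in the libraries labelled BRG1. Mitochondrial genes together had 329 and 311 CPM in controls, and 314 and 318 in the libraries labelled BRG1, so the groups overlapped. The mitochondrial sum depended on the scaling. With library size alone it was 303 and 290 CPM in controls against 340 and 343, with the libraries labelled BRG1 above both controls, while the cytosolic sum was still lower in them, at 4068 and 3924 against 3333 and 3388. An exact permutation test of 2 against 2 cannot go below p = 0.333 (two-sided). These are ratios of reads, not of molecules per gene, since transcript lengths were not used.

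**Figure D1:**
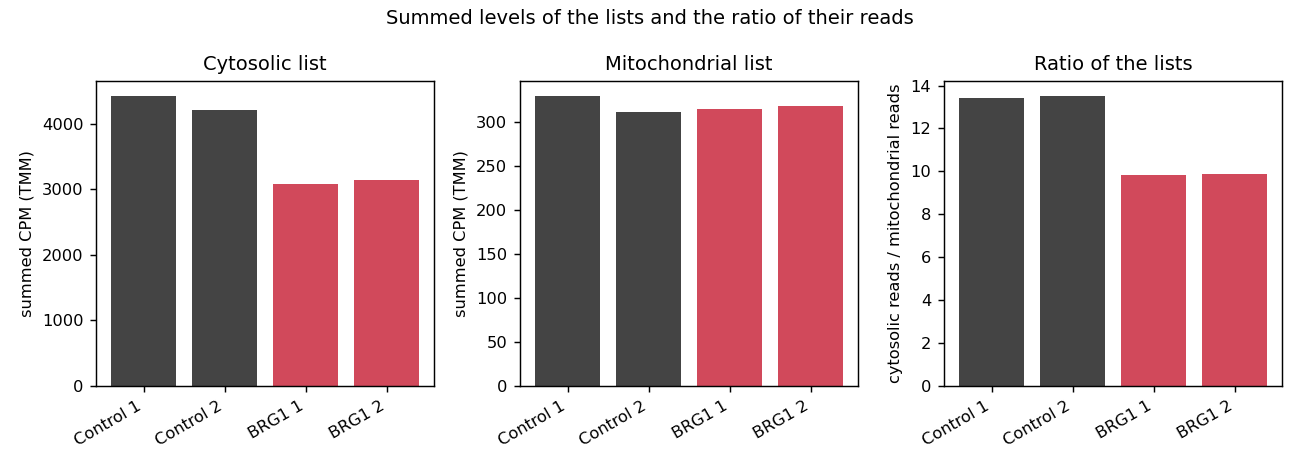
Summed CPM, scaled by TMM, of the 20 cytosolic and the 16 mitochondrial genes, and the ratio of their reads, as 1 bar per library with axes from 0 (grey, controls; red, libraries labelled BRG1). Cytosolic sums were higher in both controls, mitochondrial sums overlapped (with library size alone they were higher in the libraries labelled BRG1), and the ratio was 13.4 and 13.5 in controls against 9.81 and 9.88.

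The cytosolic enzymes that work outside the multi-synthetase complex all fell: 11 of 11 measured, with a median of -0.55 and a range from -0.82 to -0.42. WARS1 (ENSSSCG00000002516; RefSeq Sscrofa11.1 chromosome 7, 121212981 to 121238144), the tryptophan enzyme and a well-known interferon-induced gene, stood at 447 and 442 CPM in controls and at 244 and 260 in the libraries labelled BRG1. Its log2 fold change was -0.82 ± 0.10 (SE; adjusted p = 1.46e-05), the steepest fall among the enzymes. SARS1 (ENSSSCG00000006835; chromosome 4, 110857067 to 110874712), which charges serine tRNA and also supplies the serine from which selenocysteine is made, went from 264 and 231 CPM to 145 and 139 (-0.80 ± 0.11; adjusted p = 2.19e-05). In both genes the gap between groups was wider than the spread within either.

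CARS1, for cysteine, was at 145 and 145 CPM in controls and at 88.4 and 89.2 in the libraries labelled BRG1 (-0.71 ± 0.10; adjusted p = 3.63e-05). VARS1, for valine, was at 154 and 161 CPM against 98.9 and 94.8 (-0.70 ± 0.10; adjusted p = 4.41e-05). Replicates of these genes lay close together in both groups. AARS1, the alanine enzyme, whose editing site removes wrongly attached serine, was at 438 and 416 CPM against 287 and 309, a fall of 0.52 on the log2 scale. NARS1, for asparagine, was at 291 and 272 CPM against 192 and 193, a fall of 0.55. HARS1, the histidine enzyme, was at 69.8 and 62.9 CPM against 42.1 and 48.6, also a fall of 0.55.

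The smallest falls of this set were those of YARS1, TARS1, FARSA and GARS1, for tyrosine, threonine, phenylalanine and glycine. YARS1 went from 132 and 129 to 89.1 and 97.7 CPM (-0.49), TARS1 from 197 and 170 to 134 and 132 (-0.47), and FARSA, whose product needs the FARSB subunit, from 76.9 and 80.9 to 58.0 and 56.6 (-0.46). GARS1, whose product serves both compartments, went from 376 and 336 to 268 and 265 CPM (-0.42 ± 0.10; adjusted p = 0.00444). FARSA, GARS1 and TARS1 did not pass with either library labelled BRG1 left out, or with scaling by library size alone, and AARS1, HARS1 and YARS1 did not pass without library 1 labelled BRG1. Without library 1 labelled BRG1, 5 of the 11 passed, and without library 2, 8 did; CARS1, NARS1, SARS1, VARS1 and WARS1 passed with each of the 4 libraries left out in turn. TARS1 overlaps a pseudogene in the RefSeq annotation, and the sources used here do not say whether strand was used in counting.

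Members of the multi-synthetase complex were split. Of 9 measured, 4 fell and 5 did not pass, with a median of -0.28, and these 5 were the 5 cytosolic genes that did not pass. KARS1 (ENSSSCG00000002704; chromosome 6, 12057475 to 12073749), the lysine enzyme, had the most reads of any member, with 705 and 656 CPM in controls and 507 and 519 in the libraries labelled BRG1 (-0.41 ± 0.11; adjusted p = 0.00547). MARS1, which charges methionine tRNA for both initiation and elongation, went from 147 and 154 to 89.7 and 99.7 CPM (-0.67 ± 0.10; adjusted p = 8.94e-05). In the annotation the end of MARS1 (22785509) overlaps the start of DDIT3 (22785441), which itself fell by 0.98 on the log2 scale. ARHGAP9 overlaps MARS1 as well. Whether these overlaps affected the counts was not tested. QARS1, for glutamine, went from 271 and 251 to 184 and 181 CPM (-0.52 ± 0.10; adjusted p = 0.000752). Of the libraries labelled BRG1, KARS1 and QARS1 did not pass without the first (adjusted p = 0.237 and 0.0566) or without the second (adjusted p = 0.186 and 0.0662), and KARS1 did not pass with scaling by library size alone (-0.18; adjusted p = 0.16).

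The 3 enzymes of this complex with the flattest values were EPRS1, IARS1 and LARS1. EPRS1 (ENSSSCG00000010821; chromosome 10, 9579301 to 9648416), a single protein that carries the glutamate and the proline enzyme, was at 245 and 247 CPM in controls and at 239 and 253 in the libraries labelled BRG1. The groups overlapped, and the 95% interval of its log2 fold change ran from -0.21 to 0.21, which leaves out the cytosolic median of -0.50. IARS1, for isoleucine, was at 246 and 268 CPM against 234 and 231 (-0.14 ± 0.10; adjusted p = 0.266). LARS1, for leucine and also a leucine sensor of the mTORC1 pathway, was at 82.2 and 86.5 CPM against 73.3 and 75.4 (-0.18 ± 0.10; adjusted p = 0.157). For IARS1 and LARS1 the groups did not overlap, but the difference did not pass, and both intervals hold 0 and leave out -0.50. With library size alone they stood at 0.081 and 0.044, and without control 1 both passed as lower, at -0.21 and -0.22.

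RARS1, for arginine, and the scaffold gene AIMP1 depended on which control was used. RARS1 was at 67.6 and 50.5 CPM in controls and at 53.8 and 46.2 in the libraries labelled BRG1, and AIMP1 at 66.1 and 46.0 against 49.7 and 42.8; in both genes the groups overlapped. Without control 2 both passed as lower, at -0.45 and -0.53, and without control 1 their log2 fold changes were -0.02 and 0.004. AIMP2, the other scaffold gene, went from 7.57 and 8.84 to 3.54 and 4.46 CPM (-1.04 ± 0.22; adjusted p = 0.00135), the largest fold of any member and the one with the fewest cytosolic reads, 139 to 284 per library. It overlaps EIF2AK1 in the annotation.

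The genes of the complex took 41.5% and 41.9% of cytosolic synthetase reads in controls and 46.6% and 46.3% in the libraries labelled BRG1. EPRS1 alone took 5.53% and 5.85% in controls against 7.76% and 8.06%, while WARS1 took 10.1% and 10.5% against 7.91% and 8.30%. These shares are independent of the scaling between libraries, and their groups did not overlap. Whether the complex differs from the other enzymes was not tested. The 5 genes that did not pass span a median of 69.1 kb of genome, and the 15 that fell a median of 21.8 kb. After removal of the span trend from every library, IARS1 (-0.29; adjusted p = 0.0157) and LARS1 (-0.32; adjusted p = 0.0113) passed as lower too, which made 6 of 9 in the complex beside 11 of 11 outside it, and EPRS1 stood at -0.13 (adjusted p = 0.275). With either library labelled BRG1 left out, 2 genes of the complex fell. By structural class, 8 of 8 class II and 6 of 9 class I enzymes of the cytosol fell, leaving out EPRS1, which holds a domain of each.

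**Figure D2:**
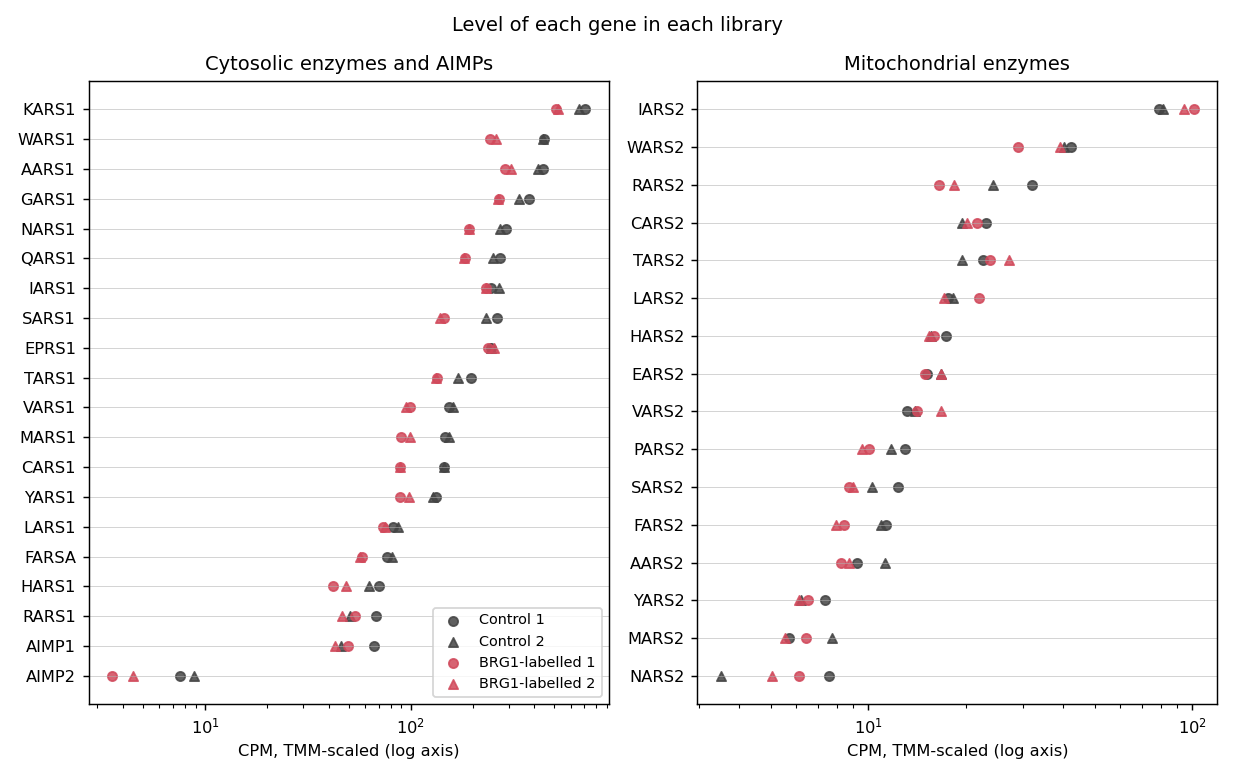
CPM scaled by TMM in each library, 1 point per library on a log axis, for the 20 cytosolic (left) and 16 mitochondrial genes (right), ordered by their level in controls (grey, controls; red, libraries labelled BRG1; circle, library 1; triangle, library 2). Red points lie left of both grey points in 17 of the 20 cytosolic and 6 of the 16 mitochondrial genes. The same order held for 35.7% of all tested genes.

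Among the mitochondrial enzymes 3 passed the test. RARS2 (ENSSSCG00000004303; chromosome 1, 55906508 to 55982094), the arginine enzyme, went from 32.2 and 24.3 CPM in controls to 16.5 and 18.5 in the libraries labelled BRG1 (-0.69 ± 0.15; adjusted p = 0.00189), and it passed as lower in each of the 13 alternative analyses. FARS2, for phenylalanine, a single-chain enzyme unlike its cytosolic counterpart, went from 11.4 and 10.9 to 8.41 and 7.96 CPM (-0.45 ± 0.17; adjusted p = 0.0406). IARS2 (ENSSSCG00000010823; chromosome 10, 9685641 to 9739816), for isoleucine, was the member that rose, from 79.1 and 81.3 to 101 and 94.5 CPM (0.29 ± 0.10; adjusted p = 0.0302). FARS2 and IARS2 each passed in 7 of the 13 alternatives; neither passed without library 1 or library 2 of those labelled BRG1, and FARS2 did not pass without control 1 or with library size alone. After removal of the span trend IARS2 did not pass. IARS2 starts 37.2 kb past the end of EPRS1 and overlaps RAB3GAP2 and a pair of microRNA genes in the annotation.

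IARS2 held 24.0% and 26.1% of mitochondrial synthetase reads in controls and 32.3% and 29.7% in the libraries labelled BRG1, so the mitochondrial sum leans on this gene. Of the 13 genes that did not pass, TARS2, for threonine, and VARS2, for valine, had both libraries labelled BRG1 above both controls, as did 37.5% of all tested genes. TARS2 was at 22.6 and 19.5 CPM against 23.8 and 27.2 (0.27 ± 0.14; adjusted p = 0.126), and VARS2 at 13.2 and 13.9 against 14.2 and 16.7 (0.19 ± 0.15; adjusted p = 0.333). Both passed as higher with scaling by library size alone, at 0.50 and 0.41. After removal of the span trend TARS2 passed as higher too, and VARS2 did not pass. Both libraries labelled BRG1 lay below both controls for AARS2, PARS2, SARS2 and WARS2, the alanine, proline, serine and tryptophan enzymes. With RARS2 and FARS2 this held for 6 of 16 mitochondrial genes, beside 35.7% of all tested genes. WARS2, for example, was at 42.4 and 40.3 CPM against 28.9 and 39.2 (-0.28 ± 0.14; adjusted p = 0.116), with library 1 labelled BRG1 well below library 2. After removal of the span trend this gene passed as lower. WARS2 passed as lower without control 1 (-0.25), without control 2 (-0.33) and without library 2 labelled BRG1 (-0.52). SARS2 was at 12.4 and 10.3 CPM against 8.72 and 8.97 (-0.36 ± 0.17; adjusted p = 0.104).

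The groups overlapped for CARS2, EARS2, HARS2, LARS2, MARS2, NARS2 and YARS2. EARS2, the glutamate enzyme, was at 15.2 and 16.8 CPM in controls and at 14.9 and 16.8 in the libraries labelled BRG1, and CARS2, for cysteine, at 23.2 and 19.4 against 21.7 and 20.2. NARS2, for asparagine, differed most between controls, at 7.57 and 3.52 CPM from 265 and 113 reads, and its fold change turned from 0.01 to -0.45 without control 2 and to 0.66 without control 1, where it passed as higher (adjusted p = 0.0357). Mitochondrial genes had fewer reads, with a median of 548 per library against 5073 for cytosolic genes, and their median SE was 0.15 against 0.10. The test was thus less able to call a change of the same size in them. Of the 16 intervals, 7 lay wholly above the cytosolic median of -0.50, 9 held it, and 7 held both it and 0, so these 7 genes were measured too loosely to tell no change from a fall of the cytosolic size. Without control 2, 5 mitochondrial genes fell, with PARS2 and SARS2 among them, and without library 1 labelled BRG1, 1 fell and 0 rose. With scaling by library size alone 3 rose and 1 fell, and without control 1, 3 rose and 2 fell.

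**Figure D3:**
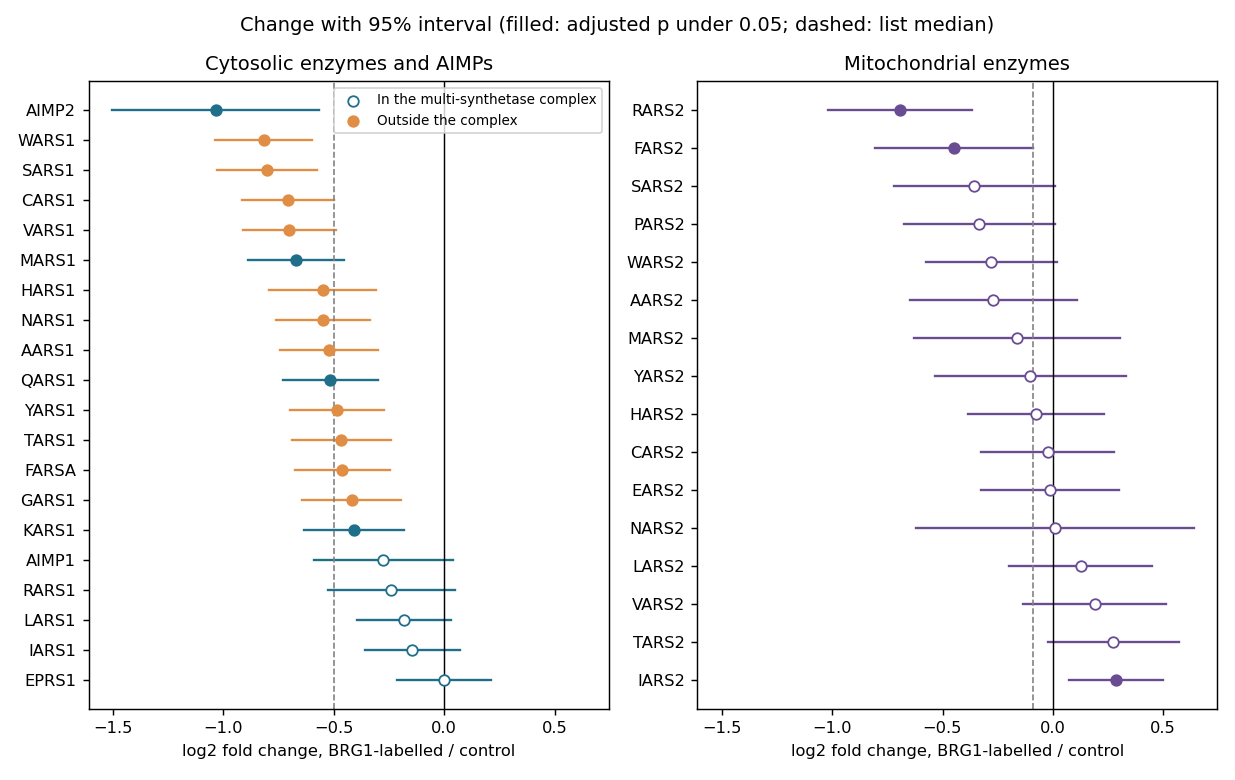
Log2 fold change (libraries labelled BRG1 against controls, x axis) with its 95% interval for each cytosolic (left) and mitochondrial gene (right), filled where the adjusted p was under 0.05 (blue, in the multi-synthetase complex; orange, outside it; purple, mitochondrial), with the median of the list as a dashed line. The 5 open points among cytosolic genes all belong to the multi-synthetase complex, and the mitochondrial points spread around a median of -0.09.

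Where an amino acid has an enzyme in each compartment, the cytosolic gene mostly had the lower fold change. Over 16 such pairs, in which EPRS1 stands against both EARS2 and PARS2, it was lower in 13 and higher in 3, with a median difference of -0.44 on the log2 scale. In 12 pairs the ratio of cytosolic to mitochondrial reads was lower in both libraries labelled BRG1 than in both controls, in 2 it was higher in both, and in 2 the groups overlapped. The widest gap was that of valine: the log2 ratio of VARS1 to VARS2 reads was 3.55 and 3.53 in controls and 2.80 and 2.50 in the libraries labelled BRG1. Threonine followed, with a log2 ratio of TARS1 to TARS2 reads of 3.12 and 3.12 against 2.49 and 2.28. These ratios compare reads within a library and need no scaling.

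Arginine ran the other way, with RARS1 at -0.24 and RARS2 at -0.69. The log2 ratio of RARS1 to RARS2 reads was 1.07 and 1.05 in controls, and 1.70 and 1.32 in the libraries labelled BRG1. For proline, EPRS1 at 0.00 stood above PARS2 at -0.33, and for phenylalanine FARSA at -0.46 and FARS2 at -0.45 lay side by side. HARS1 and HARS2, a pair of adjoining genes in mammals, stood at -0.55 and -0.08, and their log2 read ratio went from 2.00 and 2.01 to 1.40 and 1.66. With 2 libraries per group no single ratio can reach an exact permutation p below 0.333, and the difference between the compartments was not tested further.

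**Figure D4:**
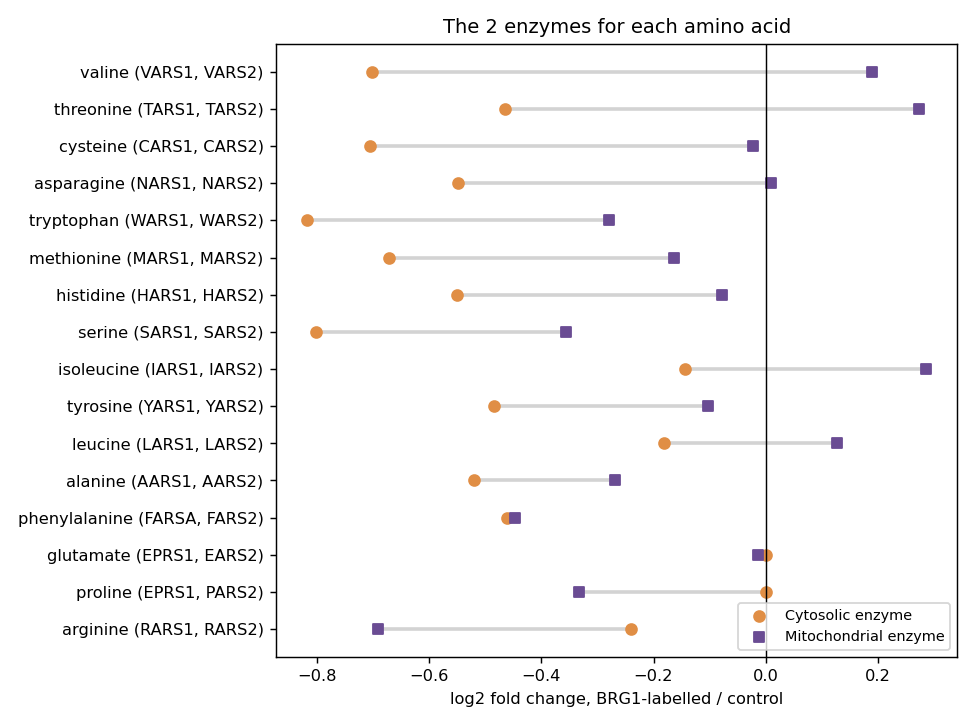
Log2 fold change (x axis) of the cytosolic (circle) and mitochondrial enzyme (square) for each of 16 amino acid pairs, joined by a grey line and ordered by their difference. The cytosolic point lies to the left in 13 pairs, with the widest gap for valine, and to the right for arginine, proline and, by 0.01, glutamate.

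Some partners of the synthetases were lower as well. EEF1E1, the remaining scaffold protein of the complex, went from 22.3 and 19.1 CPM in controls to 14.2 and 12.4 in the libraries labelled BRG1 (-0.64 ± 0.15; adjusted p = 0.00287). AARSD1, a homolog of the editing domain of AARS1, fell by 0.58 on the log2 scale. GATC, a subunit of the mitochondrial amidotransferase that makes glutaminyl-tRNA, also fell (-0.50 ± 0.19; adjusted p = 0.0411). Without library 2 labelled BRG1, at most 1 of these 3 genes passed.

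Most genes of the amino acid response, which shares its regulator ATF4 with many synthetases, were lower too. Of 27 tested, 21 fell, 3 rose and 3 did not pass, beside 23.6% that fell and 21.0% that rose among all tested genes. The median was -0.73. CHAC1, which degrades glutathione, went from 151 and 136 to 35.7 and 35.3 CPM, and TRIB3, a pseudokinase that restrains ATF4, from 136 and 138 to 38.1 and 41.0. NUPR1, a stress-induced nuclear protein, fell by 1.78 and ATF3, a transcription factor, by 1.28 on the log2 scale. ATF4 itself, named here after its values were seen, went from 944 and 802 to 477 and 493 CPM (-0.85 ± 0.11; adjusted p = 2.71e-05). The 3 genes that rose, likewise named afterwards, were EIF2AK4, the GCN2 kinase that senses uncharged tRNA (37.2 and 38.6 against 62.4 and 54.5 CPM; 0.63 ± 0.11; adjusted p = 0.000382), PHGDH, the first enzyme of serine synthesis (0.62 ± 0.11), and SLC38A2, an amino acid transporter (0.28 ± 0.11; adjusted p = 0.0435).

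Elongation factors, which take charged tRNA to the ribosome, were also lower in the cytosolic set. EEF1A1, which binds aminoacyl-tRNA, went from 18157 and 15770 to 10737 and 11111 CPM (-0.63 ± 0.13; adjusted p = 0.000956), and EEF1D and EEF2 fell by 0.56 and 0.44, while EEF1B2 (-0.25) and EEF1A2 (-0.54) did not pass, so 3 of 5 fell. Among all tested genes 23.6% fell. EEF1A1 has many processed pseudogenes, and its count is uncertain where reads were shared with them. Of 4 mitochondrial factors, TUFM, the counterpart of EEF1A1, fell from 116 and 123 to 84.0 and 84.8 CPM (-0.50 ± 0.10; adjusted p = 0.000785), and TSFM, GFM1 and GFM2 did not pass. With either library labelled BRG1 left out, 1 cytosolic factor fell. Among the mitochondrial ones, 0 fell without library 1 and 2 fell without control 2, and 1 rose with library size alone.

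Of 27 genes for tRNA synthesis, processing and modification, 14 fell, beside 23.6% of all tested genes, with a median of -0.38. The genes with the smallest adjusted p were MAF1, a repressor of RNA polymerase III (-0.64 ± 0.10), TSEN34, a subunit of the tRNA splicing endonuclease (-0.79 ± 0.13), POLR3D, a subunit of RNA polymerase III (-0.60 ± 0.10), and RTCB, the tRNA splicing ligase (-0.65 ± 0.11). BDP1, a subunit of the initiation factor TFIIIB, rose (0.52 ± 0.15) but did not pass without library 1 labelled BRG1; it was named after its values were seen. XPOT, which exports tRNA from the nucleus, was at 164 and 159 CPM in controls and at 165 and 164 in the libraries labelled BRG1. The falls numbered 6 with library size alone, 8 without library 1 labelled BRG1 and 7 without library 2.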

How the data were processed

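The authors deposited raw read counts for Ensembl genes, 1 table per library, not normalized. FastQC, STAR, SAMtools, Cufflinks, DESeq2, edgeR and the build Sscrofa11.1 are named per the submitters' processing notes, with no versions; the read counter, strand setting and annotation release are not given in the sources used here. Total RNA was extracted with trizol, per the labels' protocols. Closing rows that name no gene stayed out of library sizes and tests; reads on several genes made up 1.90% to 2.33% and reads aligned to several places 1.42% to 1.80% of listed reads.

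Genes were tested in R 4.3.3 with edgeR 4.0.16: filterByExpr (minimum count 10, minimum total 15), TMM scaling, the quasi-likelihood F test on group, and Benjamini-Hochberg adjustment over 14617 genes. Log2 fold changes used a prior count of 0.125, and SE was taken as the ratio of the unshrunk estimate to the root of F. Replicates differed by more than counting noise (chi-square per degree of freedom 37.2 for controls and 5.33 for the libraries labelled BRG1). The fit was tested on simulated data for this comparison (14317 genes): it called 68 of 100 genes with a 2-fold change, 91 of 100 with a 4-fold change and 17 of 14122 with none. Gene positions came from RefSeq by symbol or its older spelling (35 of 36 members); no sequences were used. The members and lists were chosen with earlier results of these data known. Named genes are all members, SMARCA4 and up to 4 genes of each related list with the smallest adjusted p; some genes of the related lists are not reported here. Alternatives were other scalings, filters and tools (DESeq2 1.42.0, limma-voom with limma 3.58.1), a replicate block, a threshold of 0.01, removal of the trend with gene span, and each library left out.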

Additional observations from a re-analysis of the deposited data

How the results depend on the processing

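The lower level of cytosolic synthetases kept its direction in all 13 alternatives, and 7 of the 15 genes that fell (AIMP2, CARS1, MARS1, NARS1, SARS1, VARS1 and WARS1) passed in each of them. With scaling by library size alone 4819 of all genes rose and 2140 fell, the cytosolic and mitochondrial medians were -0.27 and 0.14, 3 mitochondrial genes rose and 1 fell, and SMARCA4 stood at 0.18. In that setting the log2 fold changes of IARS1 (0.081), LARS1 (0.044), CARS2 (0.20), EARS2 (0.21), HARS2 (0.15), MARS2 (0.061) and YARS2 (0.12) turned from lower to higher, none of them past the threshold. No mitochondrial gene (0) rose without a filter on low counts, with DESeq2 or at a threshold of 0.01; at 0.01 and with DESeq2, 1 fell. The value of EPRS1 near 0 turned to -0.0068 with DESeq2 size factors, -0.030 without a filter, -0.016 with DESeq2, -0.13 with the span trend removed, and -2.36e-05 with the replicate block. CARS2 stood at 0.00032 and EARS2 at 0.0087 with the filter of 1 CPM. NARS2 stood at -0.019 without a filter, -0.0056 with DESeq2 and -0.25 with the span trend removed, and LARS2 at -0.14 in the last. The cause of these turns was not tested.

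With each library left out in turn, 1908 to 3673 of all genes rose and 2177 to 4321 fell, 7 to 17 cytosolic genes fell, and the cytosolic median lay between -0.58 and -0.47; 0 to 3 mitochondrial genes rose and 1 to 5 fell. Where an arm keeps 1 library, it is assumed to vary like the other group. Log2 fold changes then ranged from -0.15 (adjusted p = 0.0251, without control 1) to 0.048 for SMARCA4, -0.045 to 0.044 for EPRS1, -0.53 to 0.0037 for AIMP1, -0.16 to 0.10 for CARS2, -0.10 to 0.071 for EARS2, -0.060 to 0.29 for LARS2, -0.38 to 0.056 for MARS2, -0.45 to 0.66 for NARS2 and -0.24 to 0.022 for YARS2. The labels number the replicates alike in both groups, but same-numbered libraries did not deviate together (correlation -0.037 across genes), so the numbers were not taken as pairs; with the replicate block, 3189 of all genes rose and 3505 fell, 15 cytosolic genes fell, 1 mitochondrial gene rose and 2 fell. Mitochondrial genes with 113 to 1484 reads per library limit what can be called, IARS2 (2613 to 3972) aside.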
